A study of Microtus ochrogaster with 40 samples.

Results

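Expression of the 3 neuregulins Nrg1, Nrg2 and Nrg3 and of the 3 receptors Erbb2, Erbb3 and Erbb4 was described in single nuclei from the prairie vole (Microtus ochrogaster) nucleus accumbens, a region of the ventral striatum. The genes were chosen by symbol, and all 6 were among the 19130 genes listed in every library. Nuclear RNA was measured with the 10X Genomics droplet method in 40 animals, 1 library per animal, and all of them had lived with a partner for 16 days. The partner was of the opposite sex (mate) or of the same sex (peer), which gave 11 females with a mate, 8 females with a peer, 11 males with a mate and 10 males with a peer, called female mate and so on below. No unpaired animals were analysed here, no transgene, genotype or drug was labelled, the age of the animals was not given in the sources used here, and no label says who lived with whom, so animals that lived together may both be present; the tests printed here treat them as independent.

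Neuregulins are growth factors with an EGF-like domain, made by neurons and other cells as membrane-bound precursors that proteases can release. They bind the receptor tyrosine kinases ErbB3 and ErbB4. ErbB2 has no neuregulin of its own and acts as a partner in receptor pairs, whereas ErbB3 has little kinase activity and needs such a partner. In the forebrain, ErbB4 is best known from GABA interneurons, where it takes part in forming their synapses, and ErbB3 from cells of the oligodendrocyte lineage, which make myelin. Nrg3 is a neural neuregulin that binds ErbB4.

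After filtering, 178387 nuclei were kept, between 1767 and 7666 in a library, with 2941118 to 13420708 unique molecular identifiers (UMIs) per library. They were clustered without the 6 genes and without a list of other ErbB pathway genes, and marker gene lists gave the clusters the names of 17 classes, called "-like" because the names were rebuilt from markers. The labelled tissue was met by its 2 main neurons, D1 medium spiny neuron-like (36770 nuclei) and D2 medium spiny neuron-like nuclei (32381 nuclei), the projection neurons of the striatum. Glutamate neuron-like nuclei (33954 nuclei), with all 8 measured markers of their list raised, were more numerous than D2-like nuclei. They made up 1.32% to 42.5% of the nuclei of an animal. Whether they came from the nucleus accumbens or from tissue beside it was not tested, so their levels are not read as those of the accumbens. The origin of the interneuron-like classes named below was not tested either, so their levels are those of the sampled tissue. Nuclei in unnamed clusters made up 5.33% of all. The library male mate 2 stood apart, with the most barcodes (12519), the lowest median depth (656 UMIs per nucleus) and 0.568% oligodendrocyte-like nuclei, so results were also computed without it. Any 2 libraries shared at most 1.41% of their barcodes, with a median of 0.724% over pairs of libraries.

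A level is given in CPM, the UMIs of a gene scaled to a common total of the UMIs of all genes, summed over the nuclei of a class in 1 animal and then averaged over animals with at least 20 nuclei of that class. Such a level is comparable between classes for 1 gene, not between genes. The 6 genes divided the classes in different ways, described here for classes with 10 or more such animals. Nrg2 was spread over neurons, Nrg3 was highest in glutamate neuron-like nuclei, Nrg1 and Erbb4 were highest in parvalbumin interneuron-like nuclei, Erbb3 was held almost wholly by oligodendrocyte-like nuclei, and Erbb2 was highest in astrocyte-like nuclei.

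**Figure D1:**
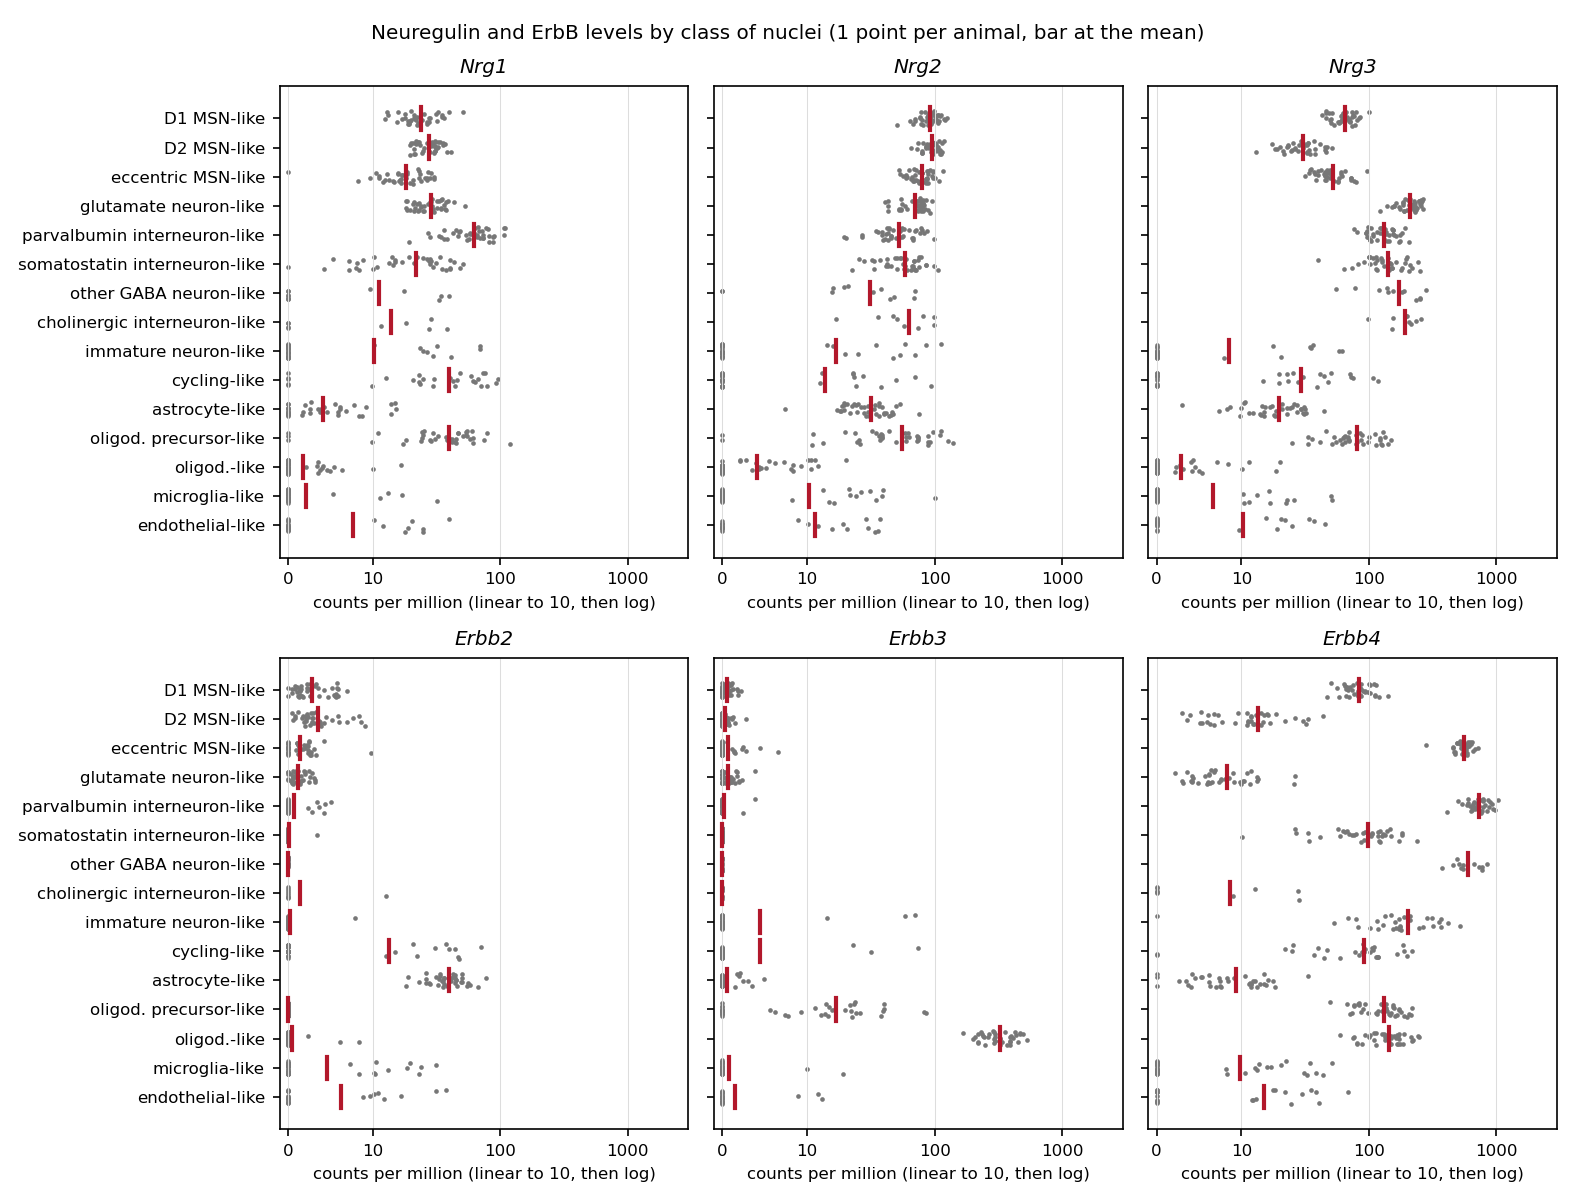
Level of each of the 6 genes (CPM, axis linear to 10 and logarithmic above) in 15 classes of nuclei, with 1 grey point per animal that had at least 20 nuclei of the class and a red bar at the mean over animals. Erbb4 spans the widest range between neuron classes, from a mean of 8.28 CPM in glutamate neuron-like to 732 CPM in parvalbumin interneuron-like nuclei, and Erbb3 stands out in oligodendrocyte-like nuclei.

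In the plot of levels by class, the ligands are in the upper row and the receptors in the lower row. Points at 0 are animals in which the nuclei of the class held no UMI of the gene, which was frequent in small or shallow classes. Medium spiny neurons, glutamate neurons, parvalbumin interneurons and oligodendrocytes had values above 0 for their leading genes in every animal, as the points show.

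Nrg1, the best studied neuregulin, was highest in parvalbumin interneuron-like nuclei among the classes with 10 or more animals. It reached 62.1 CPM ± 22.2 (SD, n = 40) there, with a lowest animal of 19.4, a median of 62.7 and a highest animal of 109.6 CPM. Cycling-like nuclei had 39.8 CPM ± 29.3 (SD, n = 29), oligodendrocyte precursor-like nuclei 39.3 CPM ± 23.4 (SD, n = 39), glutamate neuron-like nuclei 28.5 CPM ± 7.70 (SD, n = 40) and D2-like nuclei 27.7 CPM ± 5.6 (SD, n = 40). Those 4 classes followed each other in the order of the means, and none of the 3 neighbouring pairs among them was separated (paired permutation test over animals, adjusted over the 78 neighbouring pairs of all 6 genes), with a difference of 0.018 ± 0.062 (SE) in log2(CPM + 5) between glutamate neuron-like and D2-like nuclei. D1-like nuclei had 23.9 CPM ± 7.92 (SD, n = 40) and were lower than D2-like nuclei in 30 of 40 animals. Mature oligodendrocyte-like nuclei were lowest of the tested classes, at 1.81 CPM ± 3.39 (SD, n = 40), with a median animal at 0.

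Nrg2 was the neuregulin with the most even distribution over the spiny neuron, glutamate neuron, somatostatin interneuron and parvalbumin interneuron classes. D2-like nuclei had 95.1 CPM ± 12.2 (SD, n = 40), between 65.3 and 118 CPM, and D1-like nuclei 92.0 CPM ± 16.1 (SD, n = 40), between 50.7 and 124 CPM. The 2 classes overlapped over nearly their whole range. Eccentric medium spiny neuron-like nuclei had 79.0 CPM ± 15.1 (SD, n = 40), glutamate neuron-like nuclei 70.7 CPM ± 14.4 (SD, n = 40), somatostatin interneuron-like nuclei 58.3 CPM ± 19.7 (SD, n = 39) and parvalbumin interneuron-like nuclei 52.8 CPM ± 18.5 (SD, n = 40). D1-like nuclei held 29.6% of all Nrg2 UMIs, D2-like nuclei 26.1% and glutamate neuron-like nuclei 24.0%. Somatostatin interneuron-like, oligodendrocyte precursor-like and parvalbumin interneuron-like nuclei followed each other in the order of the means and were not separated as neighbours. Other neuron classes were lower, with 31.1 CPM ± 23.5 (SD, n = 12) in other GABA neuron-like and 16.8 CPM ± 29.6 (SD, n = 32) in immature neuron-like nuclei. Astrocyte-like nuclei had 31.7 CPM ± 12.8 (SD, n = 39) and oligodendrocyte-like nuclei 4.03 CPM ± 4.84 (SD, n = 40).

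Nrg3 was highest in glutamate neuron-like nuclei, at 211 CPM ± 36.9 (SD, n = 40), with a lowest animal of 121, a median of 222 and a highest animal of 266 CPM. These nuclei held 56.0% of all Nrg3 UMIs. In the classes of interneurons Nrg3 was at 173 CPM ± 71.6 (SD, n = 12) in other GABA neuron-like nuclei, a class led by Vip, at 141 CPM ± 48.7 (SD, n = 39) in somatostatin interneuron-like nuclei and at 131 CPM ± 31.8 (SD, n = 40) in parvalbumin interneuron-like nuclei. Among these 4 classes, no neighbouring pair in the order was separated. The pairs with other GABA neuron-like nuclei rest on 12 shared animals, with glutamate neuron-like nuclei 0.45 ± 0.21 (SE) higher on the log2 scale. Glutamate neuron-like nuclei were not tested directly against somatostatin or parvalbumin interneuron-like nuclei, so no likeness of their levels is read from this. Parvalbumin interneuron-like nuclei were separated from the next class, oligodendrocyte precursor-like nuclei (paired permutation test, adjusted p = 0.000195, n = 39). Cholinergic interneuron-like nuclei reached 20 nuclei in only 9 animals, too few for the test, and had 191 CPM ± 47.9 (SD, n = 9). Spiny neurons were lower, and D2-like nuclei, at 30.4 CPM ± 8.84 (SD, n = 40) with a highest animal of 51.5 CPM, lay below the lowest glutamate neuron-like value of any animal.

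The 2 glutamate neuron-like clusters were not alike in Nrg3, which is given as a description because the clusters were compared after their values were seen. The cluster led by Rxfp2 had 279 CPM ± 25.3 (SD, n = 39), with a range from 225 to 324 CPM. The cluster led by Stmn1 had 115 CPM ± 27.4 (SD, n = 40), with a range from 47.4 to 192 CPM. The ranges did not overlap, and Nrg2 showed the same order, with 97.9 CPM ± 13.9 (SD, n = 39) in the first and 33.9 CPM ± 12.0 (SD, n = 40) in the second. The clusters also differed in depth, with a median of 2352 UMIs in the Rxfp2 cluster and 1157 UMIs in the Stmn1 cluster, and in genes of other cell types. Slc1a3 was at 23.5 and 117 CPM, Gad1 at 22.4 and 89.4 CPM, Sst at 21.1 and 99.3 CPM and Pvalb at 2.66 and 18.4 CPM, and their part in the difference was not tested.

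Erbb4, the receptor that binds all 3 neuregulins, was highest in parvalbumin interneuron-like nuclei, at 732 CPM ± 127 (SD, n = 40), with a lowest animal of 409, a median of 717 and a highest animal of 1026 CPM. Other GABA neuron-like nuclei had 604 CPM ± 147 (SD, n = 12) and eccentric medium spiny neuron-like nuclei 561 CPM ± 77.0 (SD, n = 40), and these 2 were not separated from each other in the 12 animals they shared. A wide gap followed. Immature neuron-like nuclei had 202 CPM ± 116 (SD, n = 32), oligodendrocyte-like nuclei 145 CPM ± 46.7 (SD, n = 40), oligodendrocyte precursor-like nuclei 131 CPM ± 44.8 (SD, n = 39), somatostatin interneuron-like nuclei 98.8 CPM ± 48.7 (SD, n = 39), cycling-like nuclei 92.3 CPM ± 58.8 (SD, n = 29) and D1-like nuclei 84.2 CPM ± 19.9 (SD, n = 40). Among these, only oligodendrocyte precursor-like and somatostatin interneuron-like nuclei were separated as neighbours. Endothelial-like, D2-like, cholinergic interneuron-like, microglia-like, astrocyte-like and glutamate neuron-like nuclei had means between 8.28 and 15.1 CPM.

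The share of nuclei with at least 1 Erbb4 UMI followed the same division. In nuclei thinned to 500 UMIs each, it was 30.6% of parvalbumin interneuron-like, 26.6% of eccentric medium spiny neuron-like, 4.05% of D1-like and 0.698% of D2-like nuclei. Microglia-like nuclei, the class taken as background, had 0.333%. Before thinning the shares were 73.7%, 60.7%, 14.2%, 2.00% and 0.511%, at median depths of 2183, 1679, 1977, 1934 and 607 UMIs. Cholinergic interneuron-like nuclei, at 0.348% after thinning, lay at the level of microglia-like nuclei and are read as background.

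Eccentric medium spiny neuron-like nuclei (14092 nuclei in 8 clusters) took the name of neurons marked by Otof and Foxp2, a kind of spiny neuron beside the D1 and D2 kinds. Whether all 8 clusters are spiny neurons was not tested. Of the 7 measured genes of their marker list, Otof, Foxp2, Tshz1, Pcdh8 and Cacng5 were raised. They held 40.5% of all Erbb4 UMIs in 7.90% of the nuclei. Their lowest animal, male mate 2, was at 280.2 CPM of Erbb4, above the highest D1-like value of 142 CPM and the highest D2-like value of 43.7 CPM. The plot of spiny neurons shows this in each animal.

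**Figure D2:**
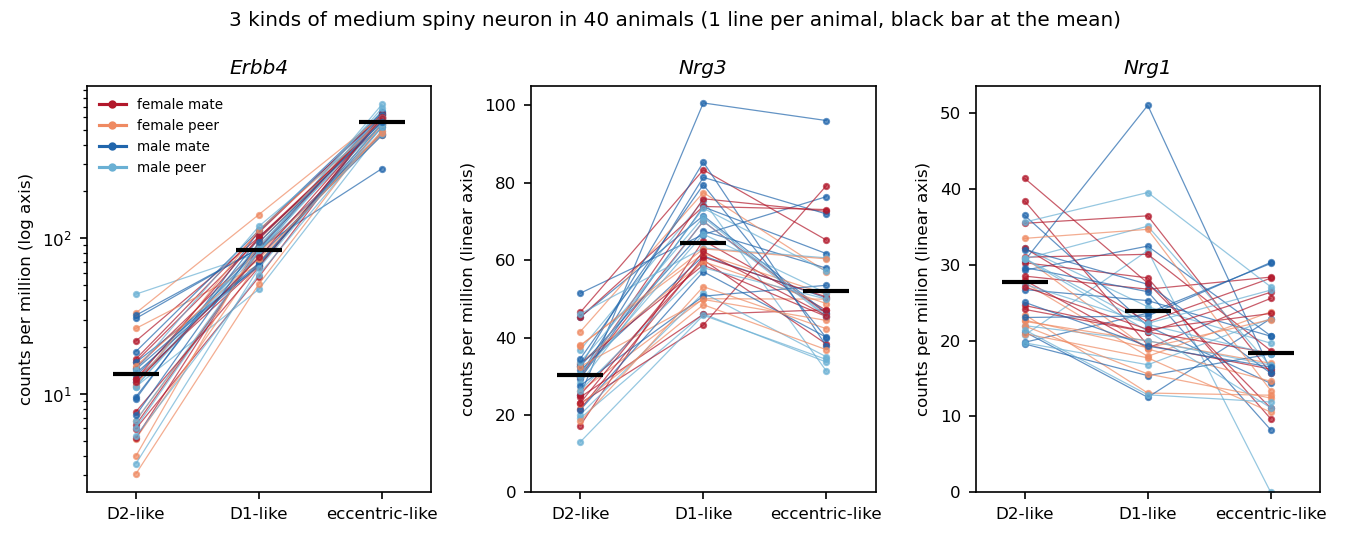
Erbb4 (logarithmic axis), Nrg3 and Nrg1 (linear axes) in CPM in the D2-like, D1-like and eccentric classes of medium spiny neurons, with 1 line per animal coloured by group and a black bar at the mean of 40 animals. Erbb4 rises from 13.4 to 84.2 to 561 CPM in the mean, and in 40 of 40 animals at each step, while the lines of Nrg1 cross.

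Against D1-like nuclei, eccentric medium spiny neuron-like nuclei were 2.69 ± 0.056 (SE) higher in Erbb4 on the scale of log2(CPM + 5), in 40 of 40 animals (paired permutation test over animals, adjusted p = 3.19e-05, n = 40). This adjusted p, over all genes and contrasts tested, is the smallest that 100000 resamples could give. The difference was larger than that of 99.6% of the genes with a mean of at least 5 CPM in either class. The 3 neuregulins went the other way against the whole D1-like class, with Nrg1 at −0.33 ± 0.10 (SE), Nrg2 at −0.21 ± 0.043 (SE) and Nrg3 at −0.30 ± 0.053 (SE). As a description, the D1-like cluster led by Pdyn and Tac1 (7320 nuclei) had 19.2 CPM of Nrg1, 64.1 CPM of Nrg2 and 50.4 CPM of Nrg3. The cluster led by Pdyn and Sntg2 (29450 nuclei) had 25.6, 103 and 69.7 CPM. Eccentric medium spiny neuron-like nuclei had 18.3, 79.0 and 52.0 CPM, with Nrg2 above the first cluster and below the second. All 4 tested genes passed, where 57.4% of the 10164 genes with a mean of at least 5 CPM in both classes passed. In the contrasts below, all genes likewise stands for genes of at least 5 CPM in both classes. At a clustering resolution of 2, Nrg1 was at −0.20 and Nrg2 at −0.13, still called.

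The difference in Erbb4 against D2-like nuclei was 5.06 ± 0.10 (SE) on the same scale, in 40 of 40 animals (paired permutation test, adjusted p = 3.19e-05, n = 40), and no other of the 10725 genes tested had a larger one. Nrg3 was 0.69 ± 0.061 (SE) higher in eccentric medium spiny neuron-like nuclei in 39 of 40 animals, while Nrg1 was −0.54 ± 0.089 (SE) and Nrg2 −0.27 ± 0.039 (SE). All 4 tested genes passed, beside 54.2% of all genes.

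D1-like and D2-like nuclei differed in Erbb4 by 2.38 ± 0.092 (SE) and in Nrg3 by 0.99 ± 0.050 (SE), both higher in D1-like nuclei in 40 of 40 animals (paired permutation test, adjusted p = 3.19e-05 for each, n = 40). The sizes exceeded those of 99.8% and 99.2% of genes with at least 5 CPM in either class. Foxp2 was at 55.6 and 52.9 CPM and Otof at 18.3 and 25.9 CPM in the 2 D1-like clusters. In the larger D2-like cluster, led by Adora2a, they were at 12.6 and 5.0 CPM. Whether nuclei of the Otof and Foxp2 kind were mixed into the D1-like class was not tested, nor was their part in these differences. Nrg1 was −0.21 ± 0.049 (SE), lower in D1-like nuclei in 30 of 40 animals (adjusted p = 0.00057 in the paired permutation test), and this call was lost when nuclei were thinned to 500 UMIs. Nrg2, at −0.055 ± 0.030 (SE), did not pass (adjusted p = 0.109 in the paired permutation test). Thus 3 of 4 tested members passed, beside 36.3% of all genes, and Nrg2 passed with doublets kept and at a clustering resolution of 2.

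Within the D2-like class, Erbb4, Nrg3 and Nrg1 were not even, again as a description of clusters chosen after their values were seen. The D2-like cluster led by Cpne7 (5290 nuclei) had 29.7 CPM ± 23.6 (SD, n = 40) of Erbb4 and the cluster led by Adora2a (27091 nuclei) 10.2 CPM ± 7.10 (SD, n = 40). For Nrg3 the levels were 84.4 CPM ± 20.0 (SD) in the first and 19.3 CPM ± 7.79 (SD) in the second. For Nrg3 the ranges of animals, 48.7 to 137 and 5.24 to 36.7 CPM, did not overlap. Nrg1 was at 43.3 CPM ± 15.5 (SD) in the Cpne7 cluster and 24.3 CPM ± 6.22 (SD) in the Adora2a cluster, with ranges that overlapped. In D1-like nuclei, Nrg1 was at 25.6 CPM in the cluster led by Pdyn and Sntg2 and 19.2 CPM in that led by Pdyn and Tac1. The former was above and the latter below the Adora2a cluster. Foxp2 was at 59.7 CPM in the Cpne7 cluster and 12.6 CPM in the Adora2a cluster, and Otof at 65.1 and 5.0 CPM; whether nuclei of the Otof and Foxp2 kind were mixed into the Cpne7 cluster was not tested.

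Eccentric medium spiny neuron-like clusters also differed among themselves. The 2 clusters led by Col14a1 (4106 nuclei) had 861 CPM ± 127 (SD, n = 38) of Erbb4, between 637 and 1271 CPM, and the 6 others (9986 nuclei) 483 CPM ± 66.5 (SD, n = 40), between 243 and 604 CPM. The ranges did not overlap. Nrg1 was at 6.60 CPM ± 7.46 (SD, n = 38) in the Col14a1 clusters and 21.5 CPM ± 8.35 (SD, n = 40) in the others, the reverse order. Markers of parvalbumin interneurons were low in both sets, with Pvalb at 3.4 and 1.6 CPM against 96.1 and 295 CPM in the 2 sets of parvalbumin interneuron-like clusters. Otof, a defining gene of the class, was at 94.9 CPM in the Col14a1 clusters and 259 CPM in the others and was not among the 10 leading genes of either Col14a1 cluster, while Foxp2 was at 697 and 572 CPM.

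The plot of levels by cluster places these beside all other clusters. The highest Erbb4 of any cluster, 957 CPM (95% Poisson interval 925 to 990), was in the larger Col14a1 cluster (3043 nuclei), and the lowest of the 8, 378 CPM (347 to 410), in a cluster led by Foxp2, Mdfic and Crhr2 (1144 nuclei). The remaining 6 lay between 424 and 708 CPM.

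**Figure D3:**
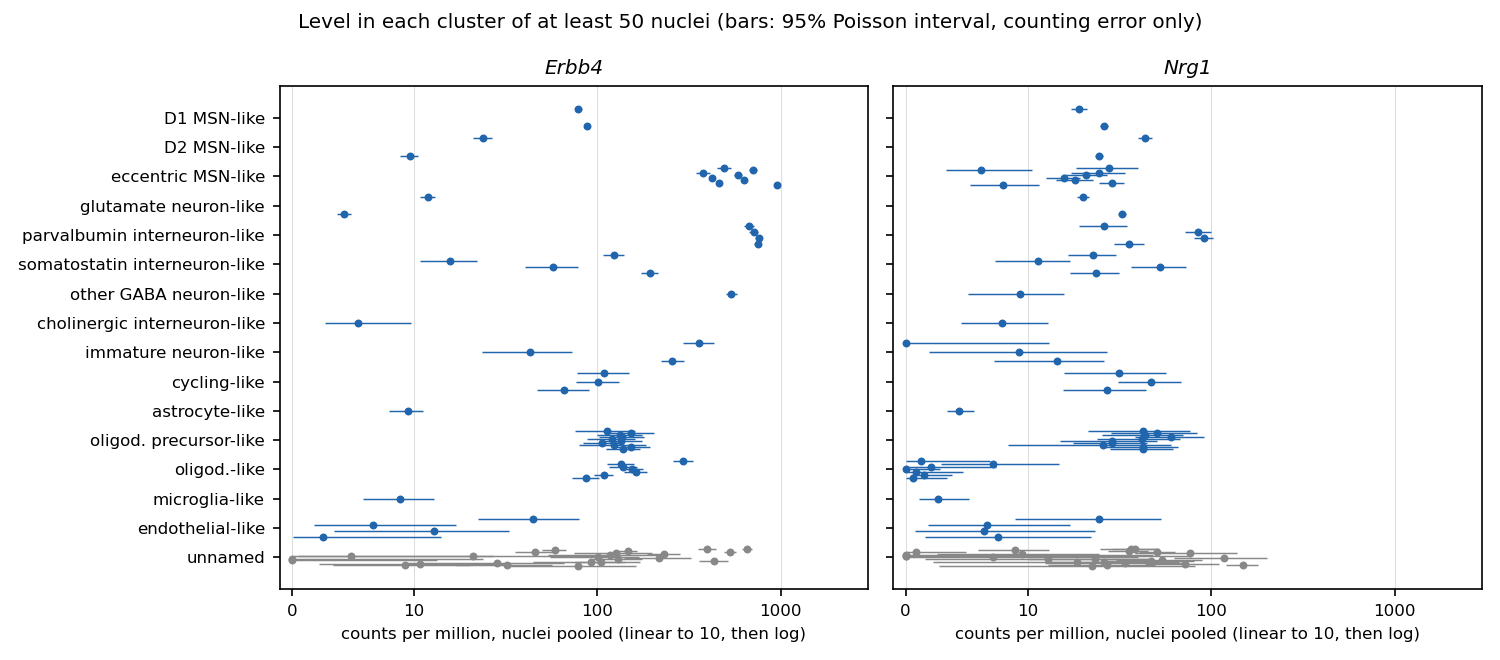
Erbb4 and Nrg1 (CPM over the pooled nuclei of a cluster, axis linear to 10 and logarithmic above) in each cluster of at least 50 nuclei, ordered by class, with bars for the 95% Poisson interval, which covers counting error only. In Erbb4 the 8 eccentric clusters span 378 to 957 CPM and the 4 parvalbumin interneuron-like clusters 673 to 759 CPM, and the eccentric cluster at 957 CPM is above every other cluster.

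Parvalbumin interneuron-like nuclei (3901 nuclei in 4 clusters) had all 6 measured genes of their marker list raised as a class, among them Pvalb, Pthlh and Kit. Compared with D1-like and D2-like nuclei together, they were 3.71 ± 0.066 (SE) higher in Erbb4, in 40 of 40 animals (paired permutation test, adjusted p = 3.19e-05, n = 40). They were also 1.32 ± 0.054 (SE) higher in Nrg3 in 40 of 40 animals and 1.07 ± 0.10 (SE) higher in Nrg1 in 37 of 40 animals. Nrg2 was −0.83 ± 0.071 (SE), lower in 40 of 40 animals. All 4 tested members passed, beside 72.4% of all genes. In thinned nuclei Nrg1 was at 0.66 and Nrg2 at −1.33, still called.

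Nrg1 was not even over the parvalbumin interneuron-like clusters, in a description of clusters chosen after their values were seen. The clusters led by Kcnc2 and Pvalb (1872 nuclei) had 91.3 CPM ± 31.0 (SD, n = 35) of Nrg1, between 39.8 and 160.1 CPM. The clusters led by Crabp1 and Kit (2029 nuclei) had 30.9 CPM ± 18.8 (SD, n = 37), between 0 and 73.0 CPM, so the ranges overlapped. Erbb4 was high in both, with 755 CPM ± 170.2 (SD, n = 35) in the first and 701 CPM ± 129.6 (SD, n = 37), with ranges that overlapped over most of their length. The markers of the class were split between the sets. Pvalb was at 295 CPM in the first set and 96.1 CPM in the second, Kit at 73.9 and 1126 CPM and Pthlh at 9.24 and 87.8 CPM. Sst was at 1056 CPM in the first set and 130.0 CPM in the second, and its part in the difference in Nrg1 was not tested.

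Somatostatin interneuron-like nuclei (2591 nuclei in 4 clusters) were 1.37 ± 0.081 (SE) higher than D1-like and D2-like nuclei together in Nrg3, in 38 of 39 animals (paired permutation test, adjusted p = 3.19e-05, n = 39). Erbb4 was 0.72 ± 0.15 (SE) higher in 31 of 39 animals (paired permutation test, adjusted p = 8.81e-05), Nrg2 was −0.69 ± 0.070 (SE) and Nrg1 −0.35 ± 0.12 (SE). All 4 passed, beside 67.0% of all genes. The call of Erbb4 was lost in thinned nuclei, at 0.30, and the value was 1.22 at a clustering resolution of 2 and 1.44 when the 6 genes and the pathway list took part in the clustering. The call of Nrg1 was lost under both of these settings, while in thinned nuclei it was at −1.23 and called.

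The clusters of this class differed in Erbb4, again as a description of clusters chosen after their values were seen. The clusters led by Npy, Nos1 and Chodl (1288 nuclei) had 25.8 CPM ± 21.3 (SD, n = 31) of Erbb4, between 0 and 71.1 CPM. Their mean was below the 51.7 CPM of D1-like and D2-like nuclei together, so the higher Erbb4 of the class was not seen in these clusters. The other somatostatin interneuron-like clusters, led by Elfn1 and Grik1 (1303 nuclei), had 162 CPM ± 83.2 (SD, n = 32), between 42.0 and 437 CPM, so the ranges overlapped. Nrg3 had the same order, with 84.1 CPM ± 45.6 (SD, n = 31) in the first and 180 CPM ± 67.7 (SD, n = 32), whereas Nrg1 was at 21.8 and 21.4 CPM. Pvalb was at 1.8 CPM in the first set and 21.3 CPM in the second, and its part in the difference was not tested. An unnamed cluster led by both Pvalb and Sst (938 nuclei) had 393 CPM ± 154 (SD, n = 21) of Erbb4.

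Set against each other, somatostatin interneuron-like nuclei differed from parvalbumin interneuron-like nuclei in Erbb4 by −2.99 ± 0.13 (SE), lower in 39 of 39 animals, and in Nrg1 by −1.45 ± 0.16 (SE), lower in 37 of 39 animals (paired permutation test, adjusted p = 3.19e-05 for each, n = 39). Nrg3, at 0.07 ± 0.066 (SE, adjusted p = 0.379 in the paired permutation test), and Nrg2, at 0.16 ± 0.10 (SE, adjusted p = 0.185 in the same test), did not pass. Thus 2 of 4 passed, beside 42.3% of all genes. Nrg3 passed at a clustering resolution of 2 and in thinned nuclei, with 0.50, and Nrg2 when the 6 genes and the pathway list took part in the clustering.

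Other GABA neuron-like nuclei (643 nuclei in 1 cluster) reached 20 nuclei in 12 animals. Against D1-like and D2-like nuclei, Erbb4 was 3.38 ± 0.11 (SE) higher in 12 of 12 animals, Nrg3 1.51 ± 0.22 (SE) higher in 11 of 12, Nrg2 −1.86 ± 0.38 (SE) in 12 of 12 and Nrg1 −1.45 ± 0.40 (SE) in 9 of 12 animals. All 4 passed in the paired permutation test (adjusted p = 0.00117 for Erbb4, n = 12), beside 35.3% of all genes. The call of Nrg3 was lost in thinned nuclei, at 0.86, and that of Nrg1 at a clustering resolution of 2. Nrg2 was at −3.32 in thinned nuclei and Nrg1 at −2.68 with a pseudocount of 1 CPM in place of 5, both still called.

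Glutamate neuron-like nuclei had high Nrg3 and low Erbb4. Compared with D1-like and D2-like nuclei together, Nrg3 was 2.00 ± 0.046 (SE) higher in 40 of 40 animals and Erbb4 −2.14 ± 0.088 (SE), lower in 40 of 40 animals (paired permutation test, adjusted p = 3.19e-05 for each, n = 40). Nrg2 was −0.39 ± 0.038 (SE), lower in 39 of 40 animals, but near 0 at a clustering resolution of 2, where its call was lost. Nrg1, at 0.12 ± 0.054 (SE), did not pass (adjusted p = 0.0534 in the paired permutation test). With 3 of 4 passing, these members stood beside a background of 80.1% of all genes.

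Erbb3, the receptor without strong kinase activity of its own, was at 326 CPM ± 91.2 (SD, n = 40) in oligodendrocyte-like nuclei, with a lowest animal of 166, a median of 310.2 and a highest animal of 528 CPM. These nuclei held 91.5% of all Erbb3 UMIs in 6.78% of the nuclei. Oligodendrocyte precursor-like nuclei followed at 16.9 CPM ± 20.2 (SD, n = 39), between 0 and 86.1 CPM, and were below the lowest oligodendrocyte-like animal. No other class had a mean above 4.45 CPM, and no Erbb3 UMI was seen in 2591 somatostatin interneuron-like nuclei, which at their median depth of 2242 UMIs allows up to 0.116% of nuclei with an Erbb3 UMI. All 7 oligodendrocyte-like clusters had Erbb3, between 234 and 400.1 CPM over pooled nuclei.

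Erbb2, the shared partner receptor, was at 39.9 CPM ± 12.5 (SD, n = 39) in astrocyte-like nuclei, with a lowest animal of 18.2, a median of 37.9 and a highest animal of 77.0 CPM. These nuclei held 44.6% of its UMIs. Mural or fibroblast-like nuclei had a like level, at 43.2 CPM in the 1 animal with 20 such nuclei, but with 11 Erbb2 UMIs in 273 nuclei of all animals (42.5 CPM pooled, beside 40.1 CPM in astrocyte-like nuclei). Cycling-like nuclei had 13.3 CPM ± 20.2 (SD, n = 29), with a median animal at 0, and the 3 spiny neuron classes between 1.41 and 3.48 CPM. An unnamed cluster led by Gfap and Sfrp2 (989 nuclei), with the astrocyte gene Slc1a3 at 3934 CPM, had 69.6 CPM ± 58.3 (SD, n = 15) of Erbb2 and, at 135 CPM ± 92.8 (SD, n = 15), the highest Nrg1 of the clusters described here. Oligodendrocyte-like nuclei, which held Erbb3, had 4 Erbb2 UMIs in 12086 nuclei, and oligodendrocyte precursor-like nuclei none in 4715, which at their median depth of 820 UMIs allows up to 0.0636% of nuclei with an Erbb2 UMI. These limits are on nuclei with a UMI, not on nuclei that express the gene, and they and the intervals cover counting error only.

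In precursor-like against oligodendrocyte-like nuclei, Erbb3 was −4.39 ± 0.20 (SE), lower in 39 of 39 animals (paired permutation test, adjusted p = 3.19e-05, n = 39). Erbb4, at −0.15 ± 0.11 (SE), did not pass (adjusted p = 0.23 in the paired permutation test). Of all genes 62.7% passed. The 3 neuregulins, each below 5 CPM in oligodendrocyte-like nuclei, entered only through the precursor-like class, so their levels are a description with no test. Nrg3 was at 81.1 CPM in precursor-like nuclei and 2.83 CPM in oligodendrocyte-like nuclei, Nrg2 at 55.3 and 4.03 CPM and Nrg1 at 39.3 and 1.81 CPM. Differentiating oligodendrocyte-like nuclei (322 nuclei, too few per animal for a test) had 15.8 CPM of Erbb3 over pooled nuclei.

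Compared with astrocyte-like nuclei, oligodendrocyte precursor-like nuclei were 3.28 ± 0.13 (SE) higher in Erbb4, in 39 of 39 animals, and 1.79 ± 0.12 (SE) higher in Nrg3, in 38 of 39 (paired permutation test, adjusted p = 3.19e-05 for each, n = 39). Nrg2 was 0.48 ± 0.19 (SE) higher in 26 of 39 animals (adjusted p = 0.0328 in the paired permutation test) and lost its call with a pseudocount of 1 CPM and in thinned nuclei. Of all genes 57.3% passed. Erbb2, Erbb3 and Nrg1 entered only through the class where they are high, so they are described with no test. Nrg1 was at 39.3 CPM in precursor-like and 4.14 CPM in astrocyte-like nuclei, and Erbb3 at 16.9 and 0.545 CPM. No Erbb2 UMI was seen in precursor-like nuclei, so its level over pooled nuclei was at least 55.5-fold lower, taking 3 counts over the class as the limit.

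Nrg3 and Erbb4 were seldom seen in the same nucleus at this depth. Erbb4 and Nrg3 were both present in 1.69% of parvalbumin interneuron-like nuclei thinned to 500 UMIs, where the product of their separate shares was 1.81%. In eccentric medium spiny neuron-like nuclei both were present in 0.717%, beside a product of 0.736%, and in D1-like nuclei in 0.125%, beside 0.133%. Erbb3 and Erbb4 were both present in 1.00% of oligodendrocyte-like nuclei, beside a product of 1.04%. In these 4 cases the share with both lay close to the product of the separate shares. Other classes departed from it on few nuclei. The highest share with both Erbb4 and Nrg3 was 2.33% in other GABA neuron-like nuclei (15 nuclei, product 1.84%), and in D2-like nuclei it was 0.0309% (10 nuclei, product 0.011%). In glutamate neuron-like nuclei the share was 0.0324% (11 nuclei), below a product of 0.0488%.

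Genes with the most similar pattern over the 88 clusters were found by Pearson's r of log2(CPM + 5) among 14092 genes that reached 20 CPM in a cluster; clusters share libraries and differ in depth, and no test was made. The 3 genes most like Erbb3 were Gjb1 (r = 0.956), Ninj2 (r = 0.952) and Afm (r = 0.951). Nrg2 was most like Lrrtm3 (r = 0.897), Trim46 (r = 0.892) and Sgsm1 (r = 0.888), and Nrg3 most like Creg2 (r = 0.85), a gene without a symbol (r = 0.847) and Frmd3 (r = 0.84). Erbb2 was most like Slc7a11 (r = 0.845), Efemp1 (r = 0.825) and Ccdc80 (r = 0.82). Nrg1, with Tenm1 (r = 0.669), Mamld1 (r = 0.664) and Slc9a7 (r = 0.657), and Erbb4, with a gene without a symbol (r = 0.687), Aldh1l2 (r = 0.679) and Pcdha6 (r = 0.659), had no gene with as near a pattern.

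The level over all nuclei of an animal was set against the share of a class in its library. In such a sum fewer nuclei of a kind and less RNA per nucleus cannot be told apart. The sum holds the UMIs of the class itself, so a rise with its share is in part built in. The p-values of these relations are against no relation and do not allow for that. Erbb3 over all nuclei was between 3.51 and 21.9 CPM, and it rose with the share of oligodendrocyte-like nuclei over 40 animals (Pearson's r = 0.709, permutation p = 1e-05, the smallest the permutations can give, adjusted over the 6 relations computed p = 6e-05). Spearman's rho was 0.679 with the same p-values, and r was 0.728 without the 2 animals farthest from the median share, male mate 2 and male mate 3.

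Nrg3 over all nuclei was between 65.4 and 186 CPM, the highest being male mate 2, and rose with the share of glutamate neuron-like nuclei (Pearson's r = 0.564, permutation p = 2e-04, adjusted p = 6e-04; Spearman's rho = 0.60, permutation p = 9e-05, adjusted p = 0.00027). Without female peer 1 and male mate 2, r was 0.613, and without male mate 2 alone 0.465. Nrg2 had r = 0.469 with the share of D2-like nuclei (permutation p = 0.0024, adjusted p = 0.0048) and rho = 0.497 (permutation p = 0.00123, adjusted p = 0.00246), with r = 0.418 without female peer 1 and female mate 3. With the share of D1-like nuclei, which held more of its UMIs, Nrg2 had r = 0.321 (permutation p = 0.0424, adjusted p = 0.0636) and did not pass.

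For the other 3 genes the relation with the share of the class where the level is highest did not pass. Erbb4 had r = −0.233 (permutation p = 0.148, adjusted p = 0.188) and rho = −0.223 (permutation p = 0.168, adjusted p = 0.252) with the share of parvalbumin interneuron-like nuclei, which held 19.3% of its UMIs. It rose, however, with the share of eccentric medium spiny neuron-like nuclei, which held 40.5% (Pearson's r = 0.861, permutation p = 1e-05, adjusted p = 3e-05; Spearman's rho = 0.862 with the same p-values). This relation was computed after seeing the data, with the class that holds the most UMIs of each gene, adjusted over 6 such relations. The sum over all nuclei holds those UMIs, so a rise is in part built in, and the p-value does not allow for that. Without female mate 4 and male peer 5, r was 0.839, and without male mate 2 it was 0.851. Nrg1 had r = 0.173 (permutation p = 0.287, adjusted p = 0.287) and rho = 0.0756 (permutation p = 0.641, adjusted p = 0.641) with the share of parvalbumin interneuron-like nuclei, and r = 0.0691 without male mate 2. Erbb2 had r = 0.226 (permutation p = 0.156, adjusted p = 0.188) and rho = 0.15 (permutation p = 0.354, adjusted p = 0.425) with the share of astrocyte-like nuclei, and r = 0.105 without male mate 2 and −0.0051 without male mate 2 and female peer 4. The plot of levels against shares shows the values of each animal for 3 of the genes, with both classes for Erbb4.

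**Figure D4:**
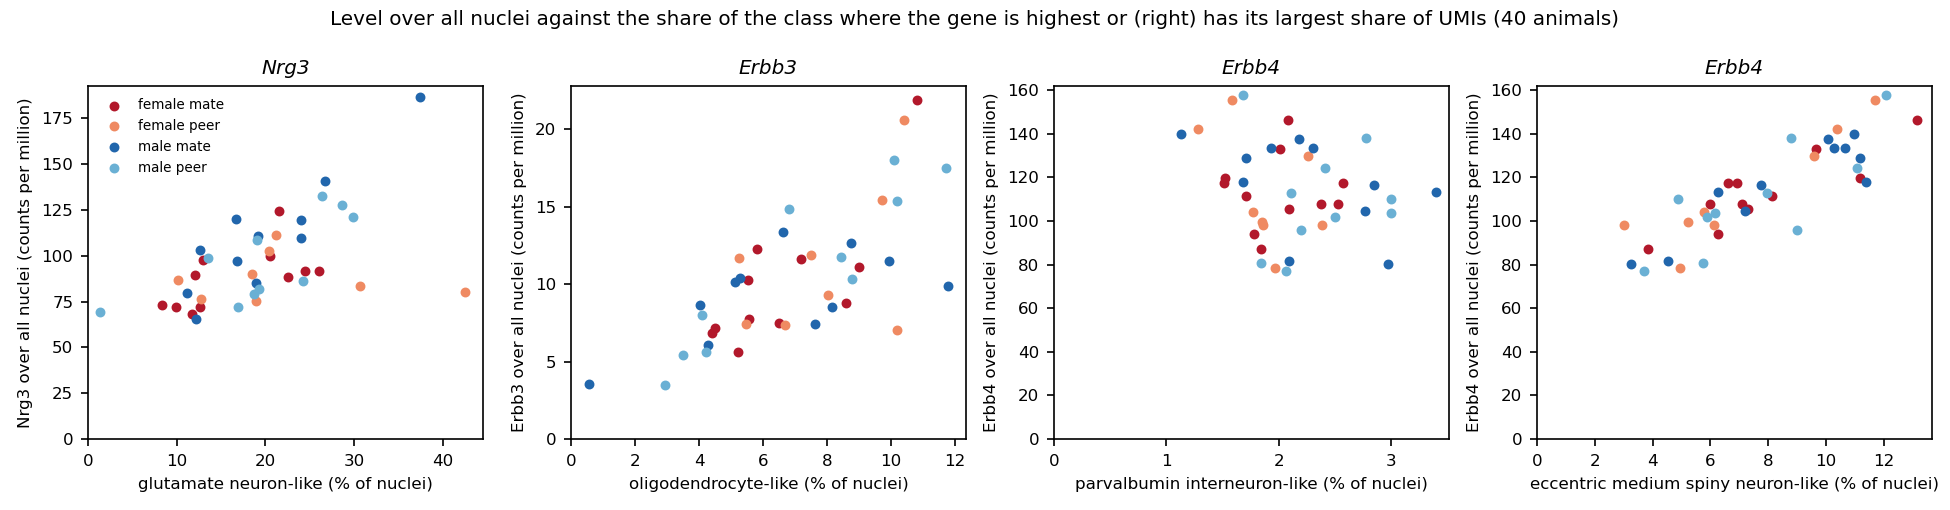
Level over all nuclei of an animal (CPM) against the share of the class where the gene is highest (percent of nuclei), for Nrg3, Erbb3 and Erbb4, and in the right panel against the class holding the most Erbb4 UMIs, with 1 point per animal coloured by group. Nrg3 and Erbb3 rise with the share (r = 0.564 and 0.709), Erbb4 does not pass with the parvalbumin interneuron-like share (r = −0.233) but rises with the eccentric share (r = 0.861), and the highest Nrg3 value, 186 CPM, is male mate 2.

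The comparisons between groups ask whether levels of these genes differ by the kind of partner and by sex, and whether the difference by partner differs between the sexes. Over all nuclei, Nrg1 was between 20.5 and 35.4 CPM in mate animals (median 25.8, n = 22) and between 17.8 and 34.1 CPM in peer animals (median 22.3, n = 18). Nrg2 was between 52.2 and 96.8 CPM (median 77.9) and between 50.1 and 93.3 CPM (median 73.2). Erbb4 was between 80.1 and 139.7 CPM in male mates and between 77.1 and 158 CPM in male peers, and between 87.4 and 146 CPM in female mates and 78.3 and 155 CPM in female peers. The ranges of mate and peer animals overlapped widely for all 6 genes.

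**Figure D5:**
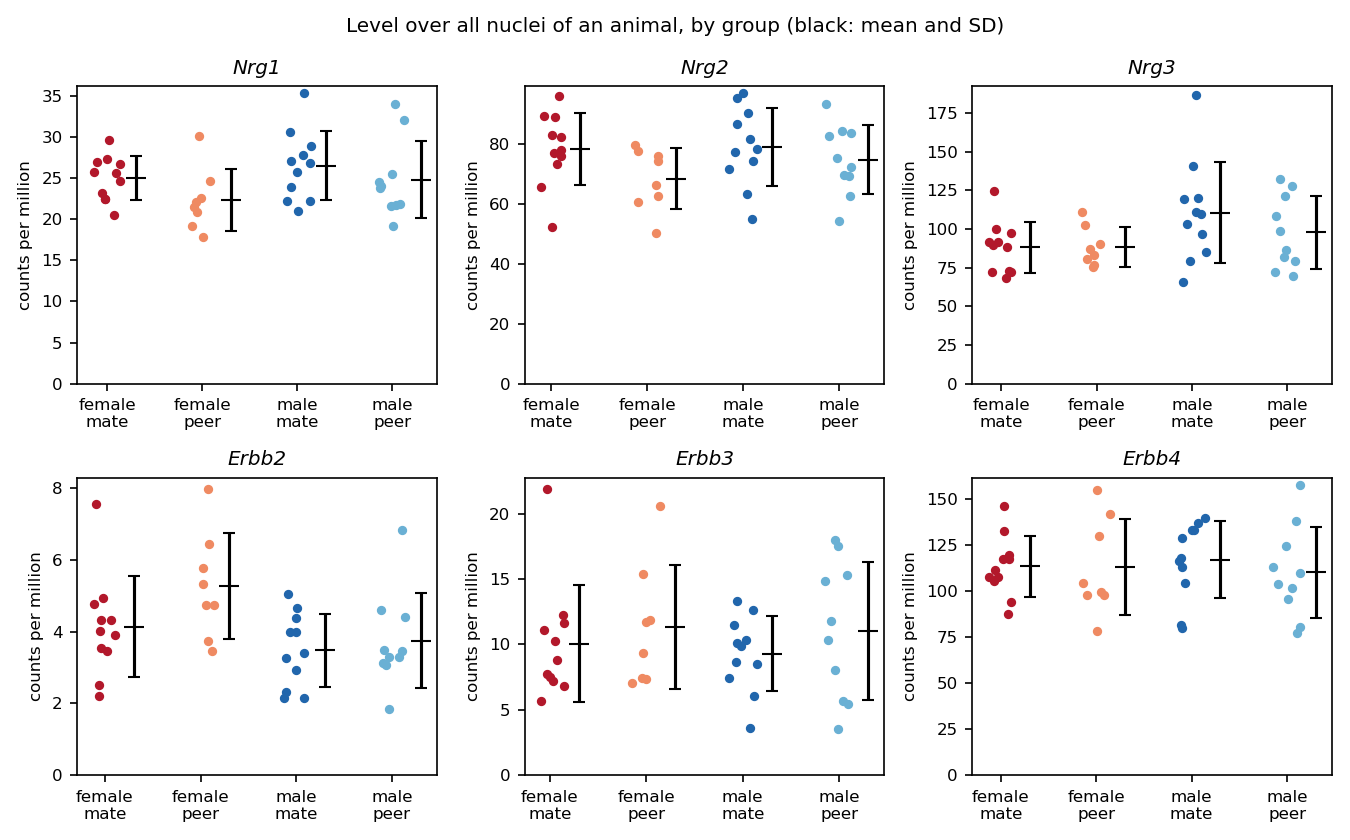
Level of each gene over all nuclei of an animal (CPM, linear axes from 0) in the 4 groups, with 1 point per animal and the mean and SD beside the points in black. The groups overlap in every panel, and the highest Nrg3 point, at 186 CPM, is male mate 2.

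None of the 6 genes passed in mate against peer animals over all nuclei (edgeR's quasi-likelihood test, adjusted over all genes), where 0% of 13727 genes passed; 0 of the 6 had an unadjusted p under 0.05, in DESeq2 too, beside 7.10% of all genes in edgeR. Nrg2 differed by 0.14 ± 0.070 (SE) on the log2 scale (95% interval −0.006 to 0.28, adjusted p = 0.686), Nrg1 by 0.13 ± 0.072 (−0.019 to 0.27, adjusted p = 0.696) and Nrg3 by 0.09 ± 0.094 (−0.10 to 0.28), which was 0.041 without male mate 2. Erbb4 differed by 0.047 ± 0.088 (−0.13 to 0.23), Erbb2 by −0.21 ± 0.14 (−0.50 to 0.086) and Erbb3 by −0.22 ± 0.18 (−0.58 to 0.14). With nuclei of at least 1000 UMIs, Nrg3 was at 0.052, Erbb2 at −0.38 and Erbb3 at −0.66, and without female peer 1 Erbb4 was at 0.076, none of them called. The median of the 6 differences was 0.069, beside −0.0053 over all genes.

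Within females 0 of the 6 passed, beside 0% of all genes, and Nrg2 was at 0.20 ± 0.10 (SE, 95% interval −0.008 to 0.41, adjusted p = 0.644 in edgeR). Within males 0 of the 6 passed, again beside 0% of all genes, and Nrg3 was at 0.18 ± 0.13 (SE, −0.086 to 0.44), and at 0.075 without male mate 2 and 0.11 with nuclei of at least 1000 UMIs. The difference of these differences between the sexes passed for none of the 6, beside 0% of all genes, and lay between −0.22 and 0.13 on the log2 scale. None of the 6 had an unadjusted p under 0.05 in these 3 comparisons, in edgeR or in DESeq2, beside 7.59%, 1.54% and 2.03% of all genes in edgeR.

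In females against males over all nuclei, 0 of the 6 passed, beside 0.0219% of all genes, and 2 had an unadjusted p under 0.05 in edgeR and in DESeq2, beside 8.35% of all genes in edgeR. Nrg3 was between 68.2 and 124 CPM in females (median 88.3, n = 19) and between 65.4 and 186 CPM in males (median 103, n = 21), a difference of −0.24 ± 0.095 (SE, 95% interval −0.43 to −0.046, adjusted p = 0.554 in edgeR), which was −0.19 without male mate 2. Erbb2 was between 2.19 and 7.99 CPM in females (median 4.33) and between 1.84 and 6.84 CPM in males (median 3.41), a difference of 0.36 ± 0.14 (SE, 0.067 to 0.65, adjusted p = 0.554 in edgeR), which was 0.56 with nuclei of at least 1000 UMIs and not called. The ranges of females and males overlapped for both genes.

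By class, 31 pairs of gene and class had enough counts, in 10 classes. None passed by pairing, beside 0% of 74810 pairs of all genes and classes, and 22 of the 31 differences, which share animals, were above 0. Erbb4 in parvalbumin interneuron-like nuclei was between 586 and 976 CPM in mates (mean 732, n = 22) and between 409 and 1026 CPM in peers (mean 731, n = 18), with a difference of −0.005 on the log2 scale (95% interval −0.18 to 0.17). In eccentric medium spiny neuron-like nuclei it was between 280.2 and 644 CPM (mean 563) and between 461 and 724 CPM (mean 558), with a difference of 0.023 (−0.11 to 0.16). Erbb3 in oligodendrocyte-like nuclei was between 208 and 499 CPM (mean 329.7) and between 166 and 528 CPM (mean 322), with a difference of 0.021 (−0.23 to 0.28).

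By pairing, 2 of the 31 pairs, both of Nrg3, had an unadjusted p under 0.05, beside 5.24% of all pairs, so the count is near that of all genes. In D1-like nuclei it was between 43.3 and 100.6 CPM in mates (median 67.1, n = 22) and between 45.8 and 77.5 CPM in peers (median 60.7, n = 18), with a difference of 0.17 ± 0.081 (SE, unadjusted p = 0.0411, adjusted p = 0.935 in edgeR). In eccentric medium spiny neuron-like nuclei the difference was 0.22 ± 0.11 (SE, unadjusted p = 0.0477, adjusted p = 0.935 in edgeR). The ranges overlapped in both classes, and DESeq2 gave 1 such pair. In both classes the highest animal was male mate 2, at 100.6 CPM in D1-like and 96.1 CPM in eccentric medium spiny neuron-like nuclei. The part of this library in the 2 differences is not given here.

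By sex, none of the 31 pairs passed, beside 0.0214% of all pairs, and 2 had an unadjusted p under 0.05 in each tool, beside 5.68% of all pairs in edgeR. Nrg3 in somatostatin interneuron-like nuclei was between 40.1 and 201 CPM in females (median 114, n = 18) and between 73.6 and 254 CPM in males (median 148, n = 21), a difference of −0.42 ± 0.13 (SE, unadjusted p = 0.00225, adjusted p = 0.806 in edgeR). Erbb2 in astrocyte-like nuclei differed by 0.30 ± 0.14 (SE, unadjusted p = 0.0348, adjusted p = 0.866 in edgeR).

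In the test of whether the pairing difference was unlike in females and males, none of the 31 pairs passed, beside 0% of all pairs, and 1 had an unadjusted p under 0.05 in each tool, beside 2.63% of all pairs in edgeR. This was Nrg2 in astrocyte-like nuclei, with a median of 30.6 CPM in female mates (24.1 to 74.9, n = 11), 20.5 CPM in female peers (7.39 to 34.9, n = 8), 23.7 CPM in male mates (18.7 to 53.6, n = 10) and 37.7 CPM in male peers (18.4 to 46.3, n = 10). The interaction was 0.84 ± 0.33 (SE, unadjusted p = 0.0132, adjusted p = 1 in edgeR). Within females none passed, beside 0% of all pairs, with 2 unadjusted p under 0.05 in edgeR, beside 4.90% of all pairs, and 1 in DESeq2. Within males none passed, beside 0% of all pairs, with 0 unadjusted p under 0.05 in both tools, beside 2.79% of all pairs in edgeR.

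The pathway around these genes was read from a list of 28 genes, of which 25 were matched by symbol: other EGF-family ligands, the receptor Egfr, the proteases that cut ligands and receptors, adaptors and scaffolds that bind activated receptors, and regulators of receptor turnover. Among the ligands, Tgfa was highest in oligodendrocyte precursor-like nuclei, at 53.0 CPM ± 27.3 (SD, n = 39), and Hbegf in endothelial-like nuclei, at 109 CPM ± 59.2 (SD, n = 22). Nrg4, the remaining neuregulin, had no class above 0.217 CPM. Egfr, the other receptor of the family, was highest in cycling-like nuclei, at 165 CPM ± 94.0 (SD, n = 29), and in astrocyte-like nuclei, at 133 CPM ± 30.4 (SD, n = 39), and was at 0.484 CPM in eccentric medium spiny neuron-like nuclei.

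Among the proteases, Bace1, which cuts Nrg1, was highest in oligodendrocyte-like nuclei, at 297 CPM ± 53.1 (SD, n = 40), and Adam17 in microglia-like nuclei, at 233 CPM ± 74.7 (SD, n = 38). The adaptor Gab1 was at 849 CPM ± 155 (SD, n = 40) in oligodendrocyte-like nuclei, the class of Erbb3. Dlg4, the synaptic scaffold PSD-95 that binds ErbB4, was highest in D1-like nuclei, at 214 CPM ± 36.4 (SD, n = 40), not in the classes with the highest Erbb4. The regulator Lrig1, which promotes the loss of ErbB receptors, was highest in astrocyte-like nuclei, at 193 CPM ± 50.2 (SD, n = 39), the class of Erbb2.

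In the class contrasts, the list had members on both sides, counted over genes of at least 5 CPM in both classes. In parvalbumin interneuron-like against D1-like and D2-like nuclei, 8 of 15 such list genes were called higher and 6 lower, beside 72.4% of all such genes called, with Hbegf at 0.97 and Dlg4 at −1.25 on the scale of log2(CPM + 5) and a median over the 15 of 0.26, beside −0.0069 over all such genes. In eccentric medium spiny neuron-like against D1-like nuclei, 4 of 17 were called higher and 5 lower, beside 57.4% of all such genes called, with a median of 0.066 beside −0.047. In oligodendrocyte precursor-like against oligodendrocyte-like nuclei, 8 of 17 were called higher and 6 lower, beside 62.7% of all such genes called, with Shc3 at 3.99 and Erbin, a scaffold that binds ErbB2, at −2.68. A further 5 list genes in the first contrast and 4 in the last reached 5 CPM in 1 of the classes only and are not counted.

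Between groups, 0 of 21 tested list genes passed over all nuclei and 0 of 137 pairs by class, in each of the 5 comparisons by edgeR. By pairing over all nuclei, 2 had an unadjusted p under 0.05, beside 7.10% of all genes: Lrig3 at −0.25 ± 0.098 (SE, unadjusted p = 0.016, adjusted p = 0.686 in edgeR) and the adaptor Shc3 at 0.13 ± 0.062 (SE, unadjusted p = 0.0371, adjusted p = 0.686 in edgeR). The next was Shc2, at 0.11 ± 0.063 (SE, unadjusted p = 0.0746 in edgeR).

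The list genes with the lowest p by sex over all nuclei were Shc4 at 0.25 ± 0.13 (SE, unadjusted p = 0.0559), Egfr at 0.17 ± 0.095 (SE, unadjusted p = 0.0801) and Sos1 at −0.10 ± 0.069 (SE, unadjusted p = 0.134), all in edgeR. Within females, 3 of 21 list genes had an unadjusted p under 0.05, beside 7.59% of all genes: Lrig3 at −0.42 ± 0.14 (SE), Errfi1, a feedback inhibitor of ErbB kinases, at −0.27 ± 0.11 (SE) and Shc3 at 0.19 ± 0.091 (SE), each with an adjusted p of 0.644 in edgeR. Within males the lowest p were those of Shc2 at 0.13 ± 0.086 (SE, unadjusted p = 0.141), the ligand Btc at −0.28 ± 0.21 (SE) and Adam17 at 0.069 ± 0.073 (SE), and for the difference between the sexes those of Lrig3 at −0.34 ± 0.20 (SE, unadjusted p = 0.0897), Errfi1 at −0.27 ± 0.16 (SE) and Sos1 at 0.20 ± 0.14 (SE), all in edgeR. By class, 6 of the 137 pairs had an unadjusted p under 0.05 by pairing, beside 5.24% of all pairs, and 3 by sex, beside 5.68%, so neither count stood above that of all genes.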

How the data were processed

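Single-nucleus RNA sequencing of 40 libraries, 1 per animal, was analysed from the deposited UMI counts per gene and barcode. The authors made these counts with Cell Ranger 3.1.0, per the submitters' processing notes; the genome build, the annotation and whether introns were counted are not given in the sources used here, and transcript forms of a gene are summed. Of 194518 barcodes, those with at least 500 UMIs and at most 5% mitochondrial UMIs were used, and 4.09% of these were removed as likely doublets at an assumed rate of 0.8% per 1000 barcodes, the highest scores against simulated doublets in each library.

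Counts were log-transformed, 2000 variable genes (without the members and the pathway list) gave 30 principal components, and the graph of 15 neighbours was clustered by the Leiden method (leidenalg 0.10.2) at a resolution of 1 until it no longer changed, with 7 of 19 clusters split once more, which gave 88. A cluster took the name of the marker list (127 of 139 listed symbols measured) with the highest mean log2 fold over the other nuclei, if that was at least 1, at least 3 markers reached a log2 fold of 1, a marker was among the 10 leading genes and no list of another lineage scored over 0.5 of it, and otherwise stayed unnamed. The naming was set after clusters and leading genes had been seen. Members and lists were chosen with earlier results of these data known.

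Counts were summed per animal and class. Groups were compared by edgeR's quasi-likelihood test (4.0.16, R 4.3.3; TMM factors, its filter on low counts, 1 mean per group) with DESeq2 (1.42.0) as an alternative; adjusted p-values are Benjamini-Hochberg values over all genes, or over all pairs of gene and class where each group had at least 6 animals with 20 nuclei. Tested on simulated data, the procedure recovered 96.0% of 2-fold changes over all nuclei (13727 genes) with 7.69% of its calls false, and 98.5% in parvalbumin interneuron-like nuclei (6932 genes), with 3.90% false. Class contrasts were two-sided paired permutation tests over animals (100000 sign flips) of log2(CPM + 5). They had been planned with adjustment over the members alone; the p-values printed are adjusted over all genes with a mean of at least 5 CPM in either class and over the 10 contrasts, a choice made after seeing the data. Alternatives were doublets kept, 1000 UMIs, no filter on low counts, blocks of 10 label numbers, limma (3.58.1) with consecutive label numbers as a block (added after seeing the data), another resolution or pseudocount, and libraries left out. Named genes were the 6 members, the 3 pathway genes with the lowest p where none was called, and the 3 genes most like each member; pathway genes given by class were chosen by role after their levels were seen. P-values set a difference or a relation against the spread between animals, which all tests but the limma fit treat as independent.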

Additional observations from a re-analysis of the deposited data

How the results depend on the processing

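No member passed between groups under any of the 8 alternatives (DESeq2, no filter on low counts, blocks of 10 label numbers, blocks of 2 consecutive label numbers, 1000 UMIs, doublets kept, or leaving out male mate 2 or female peer 1); the lowest adjusted p over members, comparisons and settings was 0.438. The 165 recomputed single differences kept their direction. Of the 37 class contrasts of members at 5 CPM or more in both classes, 31 were called as before in nuclei thinned to 500 UMIs, 32 at a resolution of 2, 34 with the 6 genes and the pathway list among the variable genes, 36 with doublets kept, 36 with a pseudocount of 1 CPM and 37 without male mate 2, and none was reversed. Those counts use p-values adjusted over members and contrasts; the adjustment over all genes, added after seeing the data, left 36 of 37 unchanged and ended the call of Nrg1 in glutamate neuron-like against D1-like and D2-like nuclei. Resolution 2 put 77.1% of nuclei in the same class and found 979 cholinergic interneuron-like nuclei in place of 574. No label says that a number marks a shared cage, litter or day, but consecutive label numbers always held a female and a male with a mate, or a pair of peers of 1 sex. With these 20 pairs as a replicate block in limma, added after seeing the data, the correlation within pairs was 0.179 over all nuclei and between 0.0465 and 0.121 by class, 0 members passed in each comparison, and the lowest adjusted p was 0.767 (limma). Low counts limit Erbb2 and Erbb3; the class contrasts printed with a p are those where both classes reached 5 CPM, a limit that the test of neighbouring classes did not have. With the share of the class that holds the most UMIs, the relation of Erbb4 turned from r = −0.233 to 0.861 and that of Nrg1 from 0.173 to −0.264 (−0.494 without male mate 2; adjusted permutation p = 0.12 with all 40 animals), while Nrg2, at 0.321, no longer passed.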
